A study of Mus musculus with 161 samples.

Results

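The genes described here are the 124 whose symbols begin with Slc and a number and that were detected in mouse monocyte progenitors or monocytes, of which 120 are solute carriers and 4 bear such a symbol without being carriers. All 124 enter the counts and sums over members. Members were chosen by their TPM values. A row was taken when it lay above 1 TPM (an abundance of transcripts per unit of length, scaled to a fixed total per cell) in 25% or more of the cells in any of 3 labelled cell types. Symbols containing -ps and the metal carriers Slc11a1, Slc11a2 and Slc40a1 were left out, so 124 of 370 eligible rows were members, from 377 solute carrier rows in a table of 43280 genes. The same detection filter kept 10063 genes of the whole table, of which the members made up 1.23%. Since measured levels chose the members, their levels are a description, and nothing below was tested.

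Messenger RNA of 161 single cells from C57BL/6 mice was sequenced after capture on the Fluidigm C1, a microfluidic system with one cell per capture site, reverse transcription with oligo-dT primers and Nextera XT library preparation. The cells were 66 common monocyte progenitors (cMoP), 57 bone marrow (BM) monocytes and 38 blood monocytes, all primary and untreated. The cMoP, a proliferating bone marrow cell committed to the monocyte lineage, was sorted as CD117+ CD115+ Ly6C+ without lineage markers or CD135, BM monocytes by those markers without CD117, while the blood gate was CD115+ CD11b+ with high Ly6C. Only cells that gave cDNA of high quality were made into libraries, and no label gives an animal, its age or its sex, so each population counted as 1 sample.

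Solute carriers move nutrients, ions and metabolites across membranes. Plasma membrane members bring in amino acids, sugars, nucleosides and vitamins, the SLC25 family exchanges metabolites across the inner mitochondrial membrane, and the SLC35 family serves the Golgi and the endoplasmic reticulum with nucleotide sugars. Dividing cells draw on several of these routes for protein and nucleotide synthesis, while macrophages and monocytes are known for carriers of lysosomal peptides and of metals.

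Most genes of the sort and the lineage went with the labels, with exceptions. Kit, which encodes CD117, was above 1 TPM in 59.1% of cMoP and in no BM or blood monocyte. The monocyte genes Ccr2 and Lyz2 were above 1 TPM in 100% of the cells of each population, with a median of 645 TPM Lyz2 in cMoP against 52936 TPM in BM and 53611 TPM in blood monocytes. Flt3, which encodes the CD135 excluded in the bone marrow sorts, was above 1 TPM in 30.3% of cMoP cells, 33.3% of BM monocytes and 31.6% of blood monocytes, and Ly6c2 had a median of 2496 TPM in blood monocytes against 5858 TPM in BM monocytes. The number of genes above 1 TPM per cell ran from 4478 to 9971 in cMoP (median 6661.5), from 3031 to 5938 in BM monocytes (median 4719) and from 2871 to 6630 in blood monocytes (median 4319.5). In the deposited labels, 60 cMoP libraries came from 1 flow cell and lane, both monocyte populations came from another, and 6 cMoP libraries named none. Those 6 stood apart, with at least 8720 genes above 1 TPM per cell against at most 7552 in the other 60. Population and flow cell therefore cannot be told apart between cMoP and monocytes, while BM and blood monocytes shared flow cell and lane. Of the cMoP libraries, 11 held over 15% mitochondrial TPM, and 3 blood libraries held at most 10 TPM of Ly6c2. Of the markers of other cells, Ngp and Retnlg (neutrophils, 2 of 5), Cd79a (B cells, where 2 of 4 were at 0), Cd3e, Cd3g and Ncr1 (T and NK cells, 3 of 4) and Pf4 and Ppbp (platelets, 2 of 3) were listed at 0 in every cell. Some others moved with the populations. Cd79b was above 1 TPM in 65.2% of cMoP cells, 10.5% of BM monocytes and 13.2% of blood monocytes. Ebf1, also a B cell marker, ran the other way at 24.2%, 33.3% and 44.7%, with no cell above 4.27 TPM. Ly6g was above 1 TPM in 90.9%, 91.2% and 55.3%, the globin gene Hbb-bs in 40.9%, 0% and 0%, and the basophil gene Mcpt8 in 18.2%, 0% and 0%. Summed per cell, the 6 erythroid markers reached at most 167, 199.78 and 13.8 TPM in these populations, the 4 B cell markers 941, 327 and 1049.67 TPM and the 3 basophil and mast cell markers 1559.54, 0 and 0 TPM. The 4 dendritic cell markers reached 277, 1524 and 739 TPM and the 3 macrophage markers 35.5, 68.3 and 346 TPM. Among these, Spic was above 1 TPM in 72.7%, 63.2% and 57.9% of cells. Cd209a was above 1 TPM in 4.55%, 17.5% and 5.26%, and Xcr1 in 19.7%, 15.8% and 15.8%. The part of all these markers in the differences described here was not tested.

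Detection of the carriers was broadest in cMoP. A median of 61.5 members per cell lay above 1 TPM in cMoP cells, 39 in BM monocytes and 34.5 in blood monocytes, which was 1.06%, 0.899% and 0.919% of the filtered genes detected in those cells. The 25% mark was reached in all 3 populations by 46 members (37.1%, beside 50.4% of the filtered genes) and in cMoP alone by 55. Those 55 were 44.4% of the members, and the same pattern held for 28.7% of the 10063 filtered genes. Slc2a6, Slc46a3 and Slc7a7 reached it only in BM monocytes (2.42%, beside 1.31%), Slc1a3 in BM and blood monocytes (0.806%, beside 3.27%), and Slc15a3, Slc18b1, Slc22a19 and Slc23a1 only in blood monocytes (3.23%, beside 2.77%). At the edge of the rule, Slc28a2 and Slc7a6os entered with 25.8% of cMoP and Slc18b1 with 26.3% of blood monocytes, while Slc4a4 stayed out with 24.6% of BM monocytes, Slc22a5 with 24.2% of cMoP and Slc9b1 with 23.7% of blood monocytes. Slc15a1, Slc18b1, Slc1a3, Slc22a19, Slc23a1, Slc25a42 and Slc38a11 were low throughout, with at most 10% of the cells of each population above 10 TPM, a limit set after their values were seen. Of the Slc rows outside the members, 246 were under the threshold, and 88 Slc rows of the table were listed at 0 in every cell.

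Summed over all members, a cell held from 877 to 13239 TPM in cMoP (median 7713), from 2190 to 10910 TPM in BM monocytes (median 5416) and from 985 to 9581 TPM in blood monocytes (median 4990). The 3 ranges overlapped widely. Slc25a5 alone carried much of this sum, and without it the medians were 4138, 3314 and 3270 TPM in the same order of populations.

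Against cMoP, BM monocytes had mostly lower levels of the members, at about the rate seen for all genes under the filter used here. The measure was the difference between populations in log2(TPM + 1) averaged over cells, with 1 on that scale counted as higher or lower. In BM monocytes 4 members were higher and 54 were lower, which was 3.23% and 43.5% of the members, beside 5.39% and 42.4% of all filtered genes. The members' median difference was -0.83, beside -0.80 for all filtered genes. The 4 higher members were Slc46a3, Slc15a3, Slc7a7 and Slc2a6. Their smallest differences over the alternative settings were 0.81, 0.53, 0.63 and 0.56, so each fell under 1 in some setting. All 4 had passed the filter only through a monocyte population. With the filter raised to detection in 50% of cells, 63.3% of 60 members were lower, beside 53.9% of all genes, and with 10 TPM in 25% of cells 68.7% of 67 members, beside 56.8%. Without the 6 cMoP libraries that name no flow cell, 49 members (39.5%) were lower, beside 39.1% of all genes. The members' median was then -0.70, beside -0.71 for all genes. The detection of fewer genes per cell in BM monocytes moved with this comparison, and its part in the differences was not tested. The restricted subset kept only cells with 4500 to 6000 genes and left out libraries over 15% mitochondrial or under 1% ribosomal protein TPM. It held 33 BM monocytes and 7 cMoP. There 14 members (11.3%) were higher and 42 (33.9%) lower, beside 15.1% and 31.4% of all genes. Scaling each cell by the median ratio of broadly detected genes moved the median of all genes to -0.57 and that of the members to -0.65. Class counts in the following are read beside the same shares of all filtered genes, 42.4% lower and 5.39% higher, and were not tested against them.

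**Figure D1:**
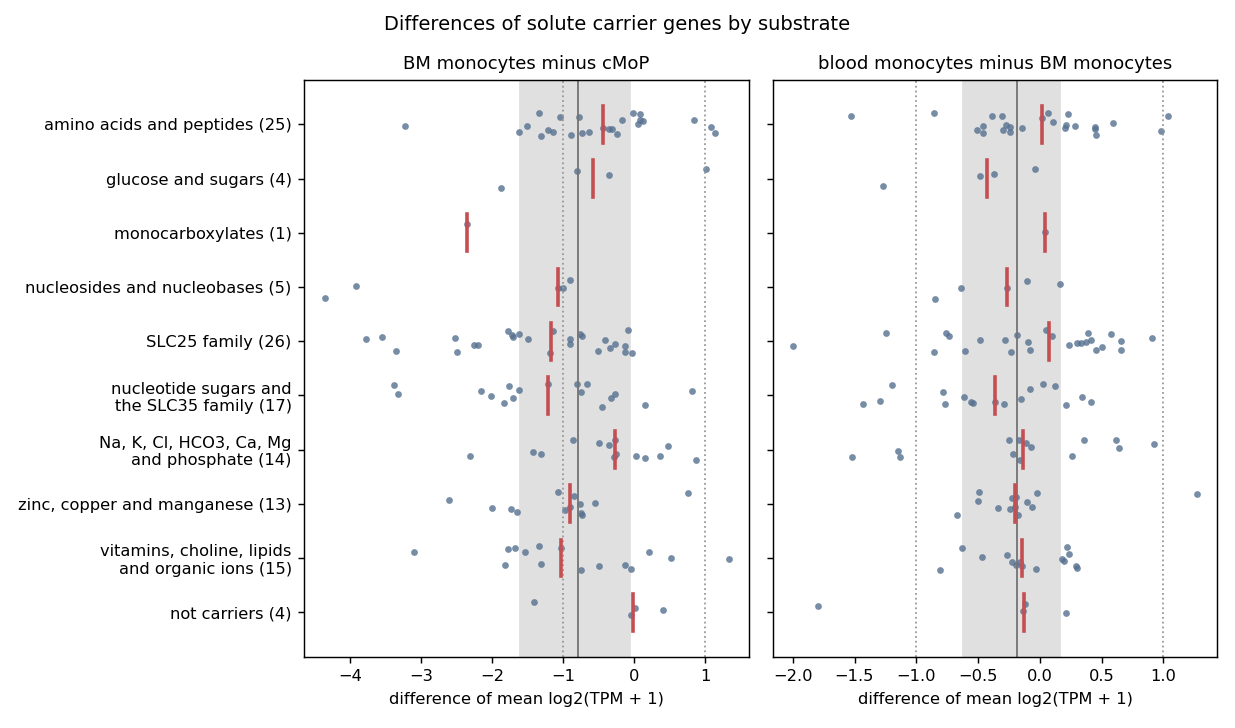
Difference of mean log2(TPM + 1) for each of the 124 members, in rows by substrate with the number of members in parentheses, for BM monocytes minus cMoP and for blood monocytes minus BM monocytes. Each dot is 1 gene, red bars are medians of a row, the grey band and line are the middle 50% and the median of the 10063 filtered genes, and dotted lines mark differences of 1; most dots of the left panel lie below 0, around a median of -0.83, and those of the right panel lie around -0.15.

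The nucleoside and nucleobase carriers held the pair with the largest differences between BM monocytes and cMoP among the members. Slc43a3, the purine nucleobase carrier ENBT1, had a median of 49.7 and a highest value of 494 TPM in cMoP cells, a median of 0 and a highest value of 558 TPM in BM monocytes, and a median of 0 and a highest value of 4.11 TPM in blood monocytes. It lay above 1 TPM in 59 of 66 cMoP cells (89.4%, 95% Clopper-Pearson interval 79.4% to 95.6%), 13 of 57 BM monocytes (22.8%, 12.7% to 35.8%) and 2 of 38 blood monocytes (5.26%, 0.644% to 17.7%); such intervals cover the counting of cells only. Its mean log2(TPM + 1) was 1.02 ± 2.19 in BM monocytes (SD, n = 57 cells) against 5.38 ± 2.55 in cMoP (n = 66), a difference of -4.36. For each member named in the following, the lowest cell was at 0 TPM in each population, apart from Slc25a5 in all of them and Slc25a3 in cMoP.

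Slc29a1, the equilibrative nucleoside transporter ENT1, showed a like profile. Its median and highest values were 50.6 and 849 TPM in cMoP cells, 0 and 579 TPM in BM monocytes, and 0 and 10.2 TPM in blood monocytes. The mean log2 level was 0.84 ± 2.17 in BM monocytes against 4.77 ± 3.20 in cMoP, a difference of -3.92. Most cMoP were high and most monocytes at 0 for both genes, yet single BM monocytes lay in the upper cMoP range, so the ranges overlapped. Both genes were above 1 TPM together in 47 of 66 cMoP cells, 4 of 57 BM monocytes and no blood monocyte. Slc29a3, the lysosomal nucleoside transporter ENT3, was more even, above 1 TPM in 56.1% of cMoP cells, 40.4% of BM monocytes and 47.4% of blood monocytes, and its BM minus cMoP difference was -1.08. Of the 5 members of this class, 4 (80%) were lower by at least 1 in BM monocytes than in cMoP and none was higher.

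The promoter of Slc29a1 is shown because this gene is among the largest differences and its window holds an E-box, CACGTG, a site bound by MYC and related factors. RefSeq promoter windows of GRCm38.p6, from 250 bases before to 50 after a start site, were found for 98 of the 124 members and searched on both strands for CACGTG and for TGATGNAA, the composite C/EBP-ATF element of amino acid response genes. CACGTG occurred in 14 of the 98 genes (14.3%), beside 8.09% of 27025 genes with a window, and TGATGNAA in 4 of 98 (4.08%), beside 4.51%. Counted per window, CACGTG occurred in 10.9% of 128 member windows, beside 7.15% of 32851 windows. The 27025 genes include genes outside the detection filter. The share among the filtered genes was not computed, so the gap cannot be read as particular to the carriers. A match describes letters only, and no binding was measured in this series. The Slc29a1 window that holds the motif is 1 of 8 for the gene and lies at chr17:45595197-45595496 on the minus strand. Capitals in this and the other windows mark motif matches, read in the direction of the gene.
Slc29a1: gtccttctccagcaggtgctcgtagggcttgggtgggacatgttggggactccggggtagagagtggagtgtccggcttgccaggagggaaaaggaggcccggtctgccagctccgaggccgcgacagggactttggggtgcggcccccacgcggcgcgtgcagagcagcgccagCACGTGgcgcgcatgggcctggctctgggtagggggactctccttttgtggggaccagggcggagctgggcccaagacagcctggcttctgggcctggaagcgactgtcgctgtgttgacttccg

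Slc16a1, the lactate and pyruvate carrier MCT1, was the sole member placed in the monocarboxylate class. Slc16a6 and Slc16a10, which share the Slc16 symbol, were placed in other classes. Slc16a6 was above 1 TPM in 45.5% of cMoP cells, 19.3% of BM monocytes and 21.1% of blood monocytes, and Slc16a10 in 40.9%, 10.5% and 2.63%. Slc16a1 had a median of 1.58 and a highest value of 145 TPM in cMoP cells, with 37 of 66 cells above 1 TPM (56.1%, 43.3% to 68.3%). No BM monocyte of 57 passed 1 TPM (3 cells of 57 would be 5.26%, and the Clopper-Pearson upper bound is 6.27%), and the highest value there was 0.3 TPM. In blood monocytes 1 of 38 cells passed, at 2.81 TPM. All cells above 2.81 TPM were therefore cMoP, and the BM minus cMoP difference was -2.36. Basigin (Bsg), the chaperone that brings this carrier to the plasma membrane, was above 1 TPM in 89.4% of cMoP cells, 68.4% of BM monocytes and 76.3% of blood monocytes. The Slc16a1 window, chr3:104638414-104638713 on the plus strand, is printed because no BM monocyte passed 1 TPM for this gene and the window holds 1 CACGTG.
Slc16a1: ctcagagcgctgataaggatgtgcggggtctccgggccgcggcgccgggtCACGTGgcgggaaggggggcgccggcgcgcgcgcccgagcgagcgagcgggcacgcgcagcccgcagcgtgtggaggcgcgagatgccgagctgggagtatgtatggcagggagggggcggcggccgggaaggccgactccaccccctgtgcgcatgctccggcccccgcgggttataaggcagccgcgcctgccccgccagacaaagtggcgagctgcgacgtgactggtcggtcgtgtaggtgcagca

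**Figure D2:**
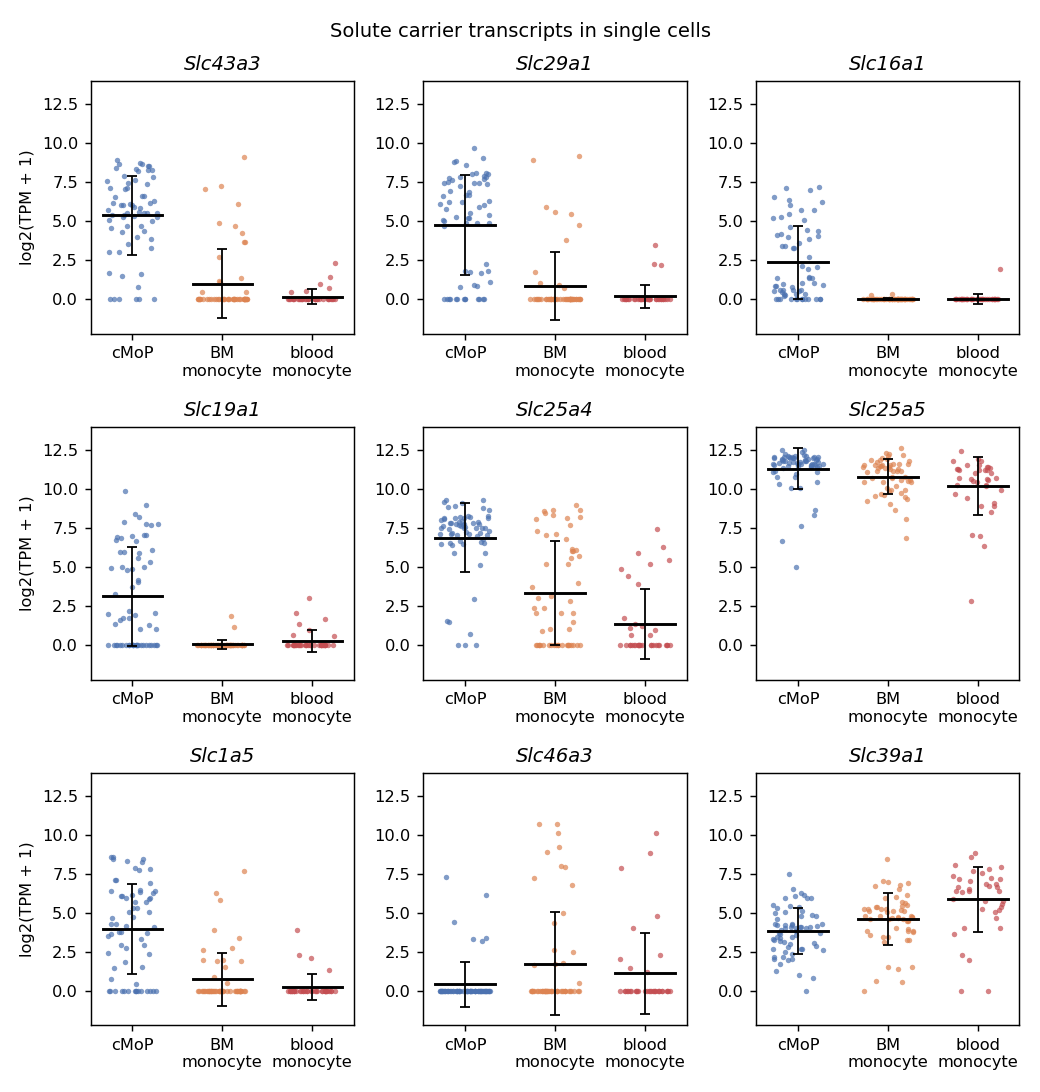
Level of 9 members in every cell, as log2(TPM + 1), for 66 cMoP, 57 BM monocytes and 38 blood monocytes; each dot is 1 cell, bars are means and whiskers 1 SD over cells. Slc43a3, Slc29a1, Slc16a1, Slc19a1 and Slc1a5 are near 0 in most monocytes. Slc25a5 is above 1 TPM in every cell and high in most, and Slc39a1 has its highest mean in blood monocytes.

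Among the amino acid and peptide carriers, 8 of 25 members (32%) were lower and 2 (8%) higher in BM monocytes relative to cMoP, with a median difference of -0.43. Slc1a5, the glutamine and neutral amino acid exchanger ASCT2, had a median of 17.8 and a highest value of 387 TPM in cMoP. In BM monocytes these were 0 and 209 TPM, and in blood monocytes 0 and 13.97 TPM. It was above 1 TPM in 74.2% of cMoP cells, 21.1% of BM monocytes and 10.5% of blood monocytes, and the BM minus cMoP difference was -3.23. High cells were thus mostly cMoP, with a few BM monocytes among them. The sodium-coupled glutamine carrier Slc38a1 (SNAT1) had medians of 12.6 TPM in cMoP cells, 0.21 TPM in BM and 0 TPM in blood monocytes, a BM minus cMoP difference of -1.62. Slc7a1, the cationic amino acid carrier CAT1, was above 1 TPM in 48.5% of cMoP cells, 5.26% of BM monocytes and 7.89% of blood monocytes, a BM minus cMoP difference of -1.50.

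Slc38a2, the system A carrier SNAT2, was lower at each later stage by the log mean but not by the mean TPM. Its medians were 82.3, 12.6 and 0.81 TPM in cMoP cells, BM monocytes and blood monocytes, while its mean TPM was 109, 121 and 119 in the same order. The highest values were 597 TPM in cMoP cells, 879 TPM in BM and 2446 TPM in blood monocytes. The BM minus cMoP difference was -1.35 and became 0.16 as a ratio of group means and 0.97 in the restricted subset. In contrast Slc38a6, another member of the SLC38 family, was even, with medians of 41.95, 34.3 and 42.1 TPM and 97.0%, 96.5% and 89.5% of cells above 1 TPM.

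The heterodimeric amino acid carriers pair the heavy chain Slc3a2 (4F2hc) with a light chain of the SLC7 family. Slc3a2 was above 1 TPM in 74.2% of cMoP cells, 68.4% of BM monocytes and 76.3% of blood monocytes, with highest values of 206, 455 and 897 TPM. The light chain Slc7a5 (LAT1), which carries large neutral amino acids, was above 1 TPM in 37.9% of cMoP cells, 5.26% of BM monocytes and 0 of 38 blood monocytes (3 cells of 38 would be 7.89%, and the Clopper-Pearson upper bound is 9.25%). Slc7a6 (y+LAT2) was above 1 TPM in 43.9%, 10.5% and 18.4% of cells. Slc3a2 was above 1 TPM together with at least 1 of the light chains Slc7a5, Slc7a6, Slc7a7 and Slc7a11 in 47 of 66 cMoP cells, 27 of 57 BM monocytes and 24 of 38 blood monocytes. Slc3a2, Slc7a5 and Slc7a6 were chosen for naming after their values were seen.

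Slc7a7 and Slc15a3 were the amino acid and peptide members higher in BM monocytes. Slc7a7, the light chain y+LAT1 for cationic and neutral amino acids, was above 1 TPM in 28.1% of BM monocytes (16.97% to 41.5%) against 15.2% of cMoP (7.51% to 26.1%), and its highest cells held 555 TPM in BM monocytes against 91.0 TPM in cMoP. The difference was 1.09, and 15.8% of blood monocytes were above 1 TPM. The gene overlaps Oxa1l on the opposite strand, and the library kit keeps no strand, so reads from the shared stretch cannot be told apart. Slc15a3, a lysosomal histidine and peptide transporter, was above 1 TPM in 2 of 66 cMoP cells (3.03%), 14 of 57 BM monocytes (24.6%) and 15 of 38 blood monocytes (39.5%). Its medians were 0 in each population and its highest values 634, 743 and 460 TPM, of which the first was the 1 cMoP above 10 TPM. The BM minus cMoP difference was 1.15 and the blood minus cMoP difference 1.59; Slc15a3 overlaps Tmem132a on the opposite strand.

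Slc7a11, the cystine and glutamate exchanger xCT, pairs with Slc3a2 and supplies cystine for glutathione. Its medians were low throughout, at 3.22 TPM in cMoP cells, 3 TPM in BM and 4.69 TPM in blood monocytes. The highest values were 42.3, 42.5 and 260 TPM, so the difference of blood from BM monocytes, 1.04, came with a group of high blood cells above an otherwise shared range. That difference was under 1 with a pseudocount of 10 (0.62) and without the 3 blood libraries low in Ly6c2 (0.90). In the restricted subset, with 14 blood and 33 BM monocytes, it was 0.44. The window at chr3:50443564-50443863 on the minus strand is printed because it holds TGATGNAA on both strands within a short stretch, the second match being read as its reverse complement TTGCATCA.
Slc7a11: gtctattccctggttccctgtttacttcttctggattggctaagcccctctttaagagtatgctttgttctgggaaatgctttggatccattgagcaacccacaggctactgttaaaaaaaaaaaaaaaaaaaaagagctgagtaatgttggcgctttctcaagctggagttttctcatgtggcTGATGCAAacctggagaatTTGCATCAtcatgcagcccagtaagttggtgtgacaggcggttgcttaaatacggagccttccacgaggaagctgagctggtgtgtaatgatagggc

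The glucose and sugar carriers were 4. Slc2a6 (GLUT6), a lysosomal hexose carrier, was above 1 TPM in 16.7% of cMoP cells, 31.6% of BM monocytes and 15.8% of blood monocytes. Its highest values were 281, 570 and 49.4 TPM, and its difference was 1.02 as BM monocytes minus cMoP and -1.27 as blood minus BM monocytes. High cells were therefore most frequent in BM monocytes. Slc50a1 (SWEET1) was above 1 TPM in 57.6% of cMoP cells, 24.6% of BM monocytes and 21.1% of blood monocytes. Its BM minus cMoP difference was -1.88 and its blood minus cMoP difference -1.92, which became 0.57 as a ratio of group means, with a highest blood cell at 1291 TPM. Slc2a1 (GLUT1), the widespread basal glucose carrier, was above 1 TPM in 27.3%, 17.5% and 10.5% of cells, with a median of 0 in each population and BM minus cMoP and blood minus BM differences of -0.36 and -0.37.

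The 26 members of the SLC25 family are mitochondrial carriers apart from the peroxisomal Slc25a17. All 26 had negative BM minus cMoP differences, as did 7781 of the 10063 filtered genes. Of the 26, 14 (53.8%) were lower by at least 1 and none was higher, with a median of -1.17 beside -0.80 for all filtered genes. The adenine nucleotide translocases, which exchange ADP and ATP across the inner membrane, had unequal profiles. Slc25a5 (ANT2) was above 1 TPM in every cell and was the most abundant member. It ran from 31.7 to 5847 TPM in cMoP (median 3338), from 116 to 6474 TPM in BM monocytes (median 2280) and from 6.28 to 5658 TPM in blood monocytes (median 1647). Slc25a4 (ANT1) had medians of 184, 4.19 and 0 TPM and highest values of 634, 513 and 172 TPM in the same order. It was above 1 TPM in 93.9% of cMoP cells, 61.4% of BM monocytes and 31.6% of blood monocytes. Its BM minus cMoP difference was -3.56 and its blood minus BM difference -1.998, against -0.52 and -0.61 for Slc25a5. The mean TPM of Slc25a5 was 15.5 times that of Slc25a4 in cMoP, 28.6 times in BM monocytes and 149 times in blood monocytes.

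The aspartate-glutamate carriers of the malate-aspartate shuttle, Slc25a12 (aralar) and Slc25a13 (citrin), were both lower in BM monocytes. Slc25a12 had a median of 112 TPM in cMoP and 0 TPM in both monocyte populations, with 84.8%, 36.8% and 10.5% of cells above 1 TPM. Its differences were -3.78 as BM monocytes minus cMoP and -1.24 as blood minus BM monocytes. Slc25a13 had a median of 19.8 TPM in cMoP and 0 TPM in the monocytes, and 72.7%, 12.3% and 23.7% of cells were above 1 TPM, a BM minus cMoP difference of -3.35. That difference was -0.64 at the smallest over the alternative settings, and that of Slc25a12 was -1.60. Both carriers were above 1 TPM in 45 of 66 cMoP cells, 5 of 57 BM monocytes and 2 of 38 blood monocytes. The Slc25a13 window, chr6:6217124-6217423 on the minus strand, is shown as the one of this pair with a CACGTG.
Slc25a13: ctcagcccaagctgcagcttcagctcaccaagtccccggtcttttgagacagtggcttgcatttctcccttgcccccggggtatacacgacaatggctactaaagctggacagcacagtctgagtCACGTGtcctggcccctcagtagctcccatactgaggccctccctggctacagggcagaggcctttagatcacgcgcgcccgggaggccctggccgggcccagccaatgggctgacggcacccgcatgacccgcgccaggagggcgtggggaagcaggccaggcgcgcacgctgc

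Slc25a3, the mitochondrial phosphate carrier, was above 1 TPM in 100% of cMoP cells, 87.7% of BM monocytes and 92.1% of blood monocytes. Its medians were 407, 108 and 88.8 TPM, while its mean TPM was 427, 374 and 365, and the BM minus cMoP difference of -1.71 was -0.19 as a ratio of group means. Other carriers lower in BM monocytes than in cMoP were Slc25a39, a mitochondrial glutathione carrier, at -2.49, Slc25a51, the NAD carrier, at -2.26, Slc25a10, the dicarboxylate carrier, at -2.196, and Slc25a37, the iron carrier mitoferrin 1, at -1.72. Slc25a17 differed by -2.52. Those 5 genes were chosen after their values were seen. Summed over the class without Slc25a5, the median cell held 1419 TPM in cMoP cells, 890 TPM in BM and 924 TPM in blood monocytes.

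The 17 members of the SLC35 family comprised 9 (52.9%) lower and none higher in BM monocytes, with a median difference of -1.22. Slc35c2, a Golgi member linked to protein fucosylation, had medians of 121, 1.65 and 0 TPM in cMoP cells, BM monocytes and blood monocytes and was above 1 TPM in 95.5%, 52.6% and 23.7% of cells. Its difference was -3.33 as BM monocytes minus cMoP and -1.43 as blood minus BM monocytes. Slc35a4 had medians of 118, 0 and 0 TPM and a BM minus cMoP difference of -3.38, but its mean TPM was 168, 127 and 122, and the ratio of group means gave -0.40. Slc35b1, which exchanges ATP and ADP at the endoplasmic reticulum, had a difference of -2.16 that became 0.29 as a ratio of group means. Slc35a5 went the other way at the first step, at 0.82 as BM monocytes minus cMoP and -1.29 as blood minus BM monocytes, with 25.8%, 38.6% and 13.2% of cells above 1 TPM.

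Of the 14 carriers of sodium, potassium, chloride, bicarbonate, calcium, magnesium and phosphate, 3 (21.4%) were lower and none higher in BM monocytes, the median being -0.27. Slc20a1 (PiT1), a sodium-dependent phosphate carrier, had medians of 2.44 TPM in cMoP and 0 TPM in both monocyte populations, and highest values of 2367, 1025 and 1522 TPM. Its BM minus cMoP difference was -2.31, and it was 0.43 in the restricted subset. The gene overlaps 9830144P21Rik on the opposite strand. Slc24a5, a potassium-dependent sodium and calcium exchanger that overlaps Myef2 on the opposite strand, had a BM minus cMoP difference of -1.42 and a blood minus BM difference of -1.14. Slc4a8, a sodium-driven bicarbonate carrier, was above 1 TPM in 34.8% of cMoP cells, 8.77% of BM monocytes and 0 of 38 blood monocytes, and its BM minus cMoP difference was -1.31. The Slc20a1 window, chr2:129198523-129198822 on the plus strand, is printed because it holds CACGTG at 2 places. It is 1 of 2 windows for the gene. Other named members with a CACGTG are not printed. The Slc35a5 window also holds 2 and the Slc12a9 window 1, with BM minus cMoP differences of 0.82 and 0.03. Slc22a4 and Slc30a5 hold 1 each, with differences of -1.82 and -1.74. Slc31a2 also holds CACGTG, with a difference of -0.55. Windows of Slc7a7 and Slc50a1 that hold TGATGNAA are not printed either, and those genes had BM minus cMoP differences of 1.09 and -1.88.
Slc20a1: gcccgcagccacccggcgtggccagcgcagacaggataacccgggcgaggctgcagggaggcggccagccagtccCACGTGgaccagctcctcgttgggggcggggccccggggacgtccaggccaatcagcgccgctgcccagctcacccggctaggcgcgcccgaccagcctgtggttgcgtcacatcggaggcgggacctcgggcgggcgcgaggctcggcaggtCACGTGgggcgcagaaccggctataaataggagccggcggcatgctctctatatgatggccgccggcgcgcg

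Among the 13 zinc, copper and manganese carriers, 5 (38.5%) were lower and none higher by at least 1 in BM monocytes, and the median was -0.91. Slc39a6 (ZIP6), a zinc importer, was above 1 TPM in 56.1% of cMoP cells, 7.02% of BM monocytes and 5.26% of blood monocytes, a BM minus cMoP difference of -2.61; it overlaps Elp2 on the opposite strand. Slc39a7 (ZIP7), which releases zinc from the endoplasmic reticulum, was above 1 TPM in 57.6%, 17.5% and 7.89% of cells and differed by -1.999. That difference ran from -5.34 to -0.25 over the alternative settings, and the gene overlaps Gm20427 on the same strand. The zinc exporter Slc30a5 (ZnT5) differed by -1.74, which was 0.014 in the restricted subset. Metallothionein 1 (Mt1), a zinc-binding protein gene, had medians of 122, 0 and 0 TPM.

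Slc39a1 (ZIP1), a plasma membrane zinc importer, ran opposite to its class. It was above 1 TPM in 97.0% of cMoP cells, 94.7% of BM monocytes and 94.7% of blood monocytes, so the populations differed in level. The median was 14.8 TPM in cMoP cells, 26.1 TPM in BM and 84.6 TPM in blood monocytes, and the highest values were 181, 345 and 454 TPM. The mean log2 level was 5.87 ± 2.09 in blood monocytes (SD, n = 38 cells) against 4.60 ± 1.66 in BM monocytes (n = 57) and 3.84 ± 1.48 in cMoP (n = 66). The blood minus BM difference was 1.27, with 1.07 to 1.65 over the alternative settings, and the blood minus cMoP difference was 2.04. The ranges overlapped, as blood cells at 0 TPM and cMoP above 100 TPM both occurred.

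The carriers of vitamins, choline, lipids and organic ions were 15, with 8 (53.3%) lower and 1 (6.67%) higher in BM monocytes relative to cMoP and a median of -1.03. Slc19a1, the reduced folate carrier, had a median of 2.94 and a highest value of 941 TPM in cMoP. The highest values in BM and blood monocytes were 2.63 and 7.18 TPM. It was above 1 TPM in 62.1% of cMoP cells, 3.51% of BM monocytes and 10.5% of blood monocytes, a BM minus cMoP difference of -3.10, and it overlaps Col18a1 on the opposite strand. Slc22a4 (OCTN1), which carries ergothioneine, was above 1 TPM in 50% of cMoP cells, 7.02% of BM monocytes and 0 of 38 blood monocytes, a BM minus cMoP difference of -1.82. The choline carrier-like Slc44a2 had medians of 55.7, 5.94 and 11.1 TPM, and its blood minus cMoP difference of -1.93 became 0.49 as a ratio of group means. Slc46a3, a lysosomal membrane carrier, was above 1 TPM in 9.09% of cMoP cells, 28.1% of BM monocytes and 23.7% of blood monocytes, with highest values of 158, 1671 and 1104 TPM. Its BM minus cMoP difference was 1.33, and cells above the cMoP maximum occurred in both monocyte populations.

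**Figure D3:**
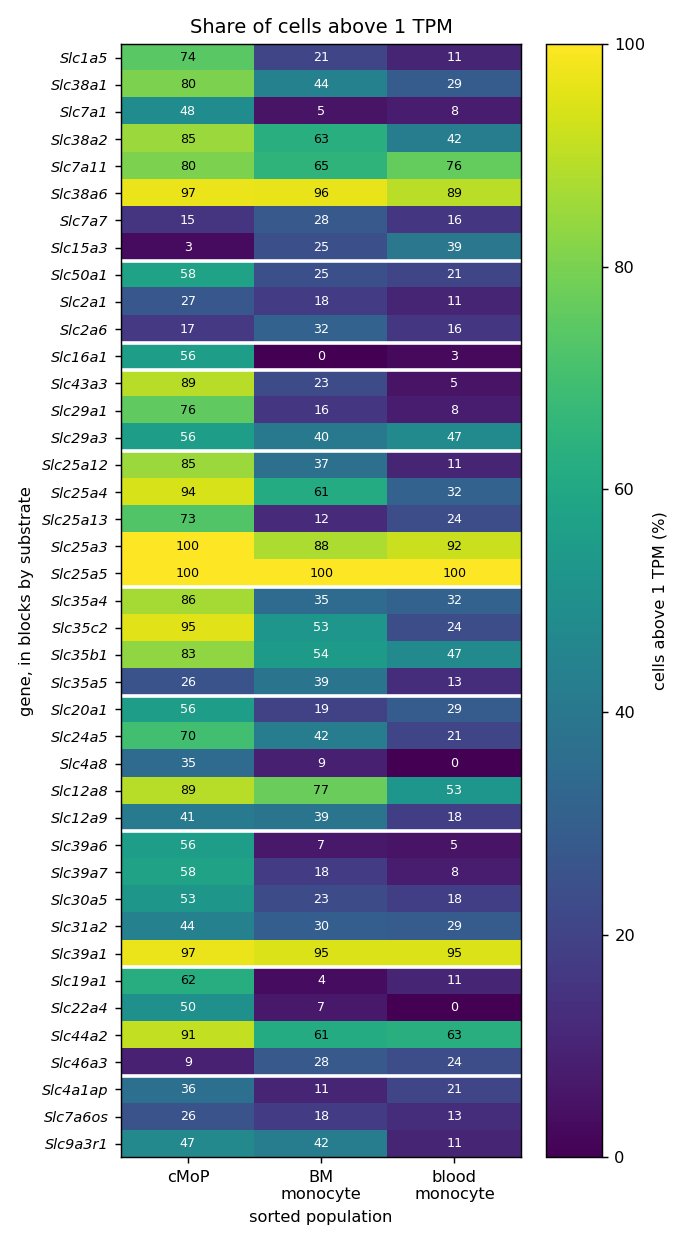
Share of cells above 1 TPM, in percent, for members named by the rule for naming genes, in blocks by substrate from amino acids at the top to Slc-named genes that are not carriers at the bottom; columns are cMoP, BM monocytes and blood monocytes. Slc25a5 is at 100% in all columns, and Slc15a3 has 3%, 25% and 39%.

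Genes that bear an Slc symbol without being carriers were 4. Slc9a3r1 (NHERF1), a scaffold that anchors transporters at the membrane, was above 1 TPM in 46.97% of cMoP cells, 42.1% of BM monocytes and 10.5% of blood monocytes. Its blood minus BM difference was -1.80. Slc4a1ap (kanadaptin) differed by -1.41 between BM monocytes and cMoP.

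Blood monocytes compared with BM monocytes had fewer members past 1 by the mean of logs than BM monocytes against cMoP. This did not hold by the ratio of group means. That ratio gave 29 higher (23.4%, beside 15.4% of all filtered genes) and 35 lower (28.2%, beside 24.6%) here. For BM monocytes against cMoP it gave 15 higher (12.1%, beside 15.2%) and 36 lower (29.03%, beside 23.84%). By the mean of logs, 2 of the 124 members were higher in blood than in BM monocytes, Slc39a1 and Slc7a11, and 11 were lower. These were 1.61% and 8.87%, beside 2.65% and 13.4% of all filtered genes. The members' median was -0.15, beside -0.19 for all filtered genes. After Slc25a4 at -1.998, the lower members were Slc9a3r1 at -1.80, Slc12a8 at -1.52, Slc38a2 at -1.52, Slc35c2 at -1.43, Slc35a5 at -1.29, Slc2a6 at -1.27, Slc25a12 at -1.24, Slc35c1 at -1.20, and Slc12a9 and Slc24a5 at -1.14 each. Slc12a8 was above 1 TPM in 52.6% of blood monocytes (median 1.32 TPM) against 77.2% of BM monocytes (median 10.2 TPM). Slc12a9, of the cation-chloride cotransporter family, was above 1 TPM in 18.4% of blood monocytes against 38.6% of BM monocytes. Slc35c1, the Golgi GDP-fucose carrier, was above 1 TPM in 23.7% of blood monocytes against 43.9% of BM monocytes.

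Blood monocytes against cMoP joins the other comparisons, from the same cells, and is not separate evidence. Here 2 members were higher, Slc39a1 at 2.04 and Slc15a3 at 1.59, and 65 were lower, which was 1.61% and 52.4%, beside 5.83% and 51.8% of all filtered genes. The members' median was -1.05, beside -1.06 for all filtered genes.

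Genes that work beside the solute carriers were taken from lists chosen with earlier results in view. Of 26 filtered carriers outside the Slc symbols, 1 (3.85%) was higher and 11 (42.3%) lower in BM monocytes relative to cMoP, with a median of -0.75, beside 5.39% and 42.4% of all filtered genes. The higher gene was Ucp2, a mitochondrial carrier of the same fold as the SLC25 proteins, with a median of 2580 TPM in BM monocytes against 1079 TPM in cMoP and a difference of 1.51. The lower genes were led by Sfxn1, the mitochondrial serine carrier, at -4.65, and Mfsd10 at -3.97. Of 19 filtered transporter partners and ion pumps, 3 (15.8%) were higher and 8 (42.1%) lower. Txnip, which promotes removal of glucose carriers from the membrane, differed by 2.51, while Mt1 differed by -4.47 and Bsg by -2.62. Of 23 filtered genes of amino acid sensing and response, none was higher and 9 (39.1%) were lower, with a median of -0.83. Phgdh, the first enzyme of serine synthesis, was above 1 TPM in 7.02% of BM monocytes against 95.5% of cMoP cells, a difference of -6.39, and Myc, a growth regulator, in 5.26% against 80.3%, a difference of -4.95.

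**Figure D4:**
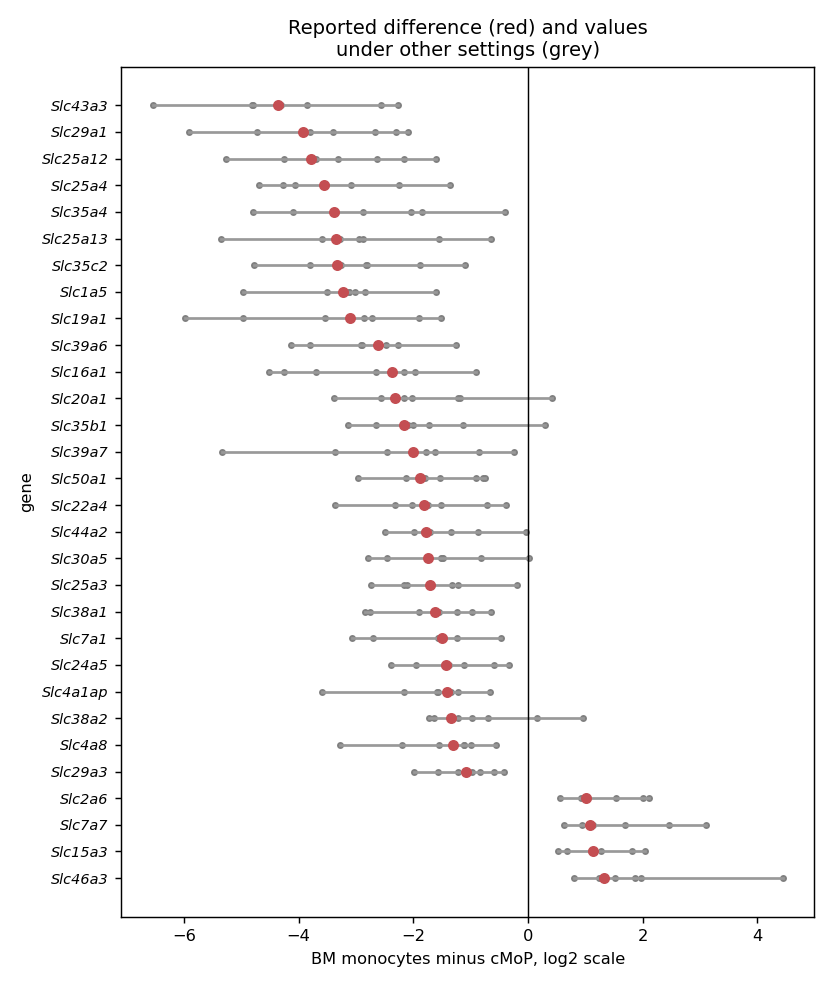
BM monocytes minus cMoP on the log2 scale for the named members past 1; red dots are the reported difference, grey dots and lines the values and range over other pseudocounts, scalings, means and subsets of cells. Slc43a3 runs from -6.54 to -2.26, while Slc20a1, Slc35b1, Slc38a2 and Slc30a5 extend past 0.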

How the data were processed

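The authors deposited TPM per gene and cell, made with RSEM 1.2.19 on GRCm38 per the submitters' processing notes. Aligner and annotation: not given in the sources used here. Columns summed to 997939 to 999955 TPM, and all 161 columns matched a library (0 unused). TPM keep no read depth, so depth per cell is unknown, and an exact 0 can be a failed estimate.

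From these values the mean over cells of log2(TPM + 1) was taken per population (pseudocount 1), and the difference, later stage minus earlier, was read against all genes passing the same filter. The pseudocount understates differences of low genes. Each group counted as 1 sample, so no test was run. SDs and 95% Clopper-Pearson intervals (scipy 1.17.1) cover the spread and counting of cells only. A share of 0 is given the limit of 3 cells for Slc16a1 and Slc7a5. The same limit, 5.26% of 57 BM monocytes and 7.89% of 38 blood monocytes, holds for the other shares of 0. The difference function was tested on simulated data (pandas 2.3.3, numpy 2.4.6, Python 3.11.15). Members overlapping another row of the table in GENCODE M21 numbered 54, and strandedness of counting is not given. The overlap is named above for only some of them.

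The members, substrate classes and gene lists were chosen with earlier results of these data known. Named genes were, per class, up to 3 with the largest difference of BM monocytes from cMoP in each direction past 1, up to 2 for blood against BM monocytes, and the 2 with the highest mean TPM. In each companion list the 2 largest in each direction were named, and the 3 members just inside and 3 rows just outside the threshold were added. Genes named beyond this were chosen after their values were seen, among them Slc35c1, Slc1a3, Slc22a19, Slc23a1 and the members low throughout. Alternatives covered the pseudocount, the mean, the filter, scaling, the fold, and the libraries kept. A few named genes are not reported here.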

Additional observations from a re-analysis of the deposited data

How the results depend on the processing

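Of 74 named differences of at least 1, 63 kept their sign under every alternative tried; the cause of the changes below was not tested. No paired analysis was possible because no label links cells of different populations. TPM give no depth, so detection limits are unknown; cells had fewer detected genes in the monocyte populations. The restricted subset keeps cells with 4500 to 6000 genes and leaves out libraries over 15% mitochondrial or under 1% ribosomal protein TPM. It holds 7 cMoP, 33 BM monocytes and 14 blood monocytes, so its values rest on few cells. In parentheses stand the share of members and, after the comma, that of all genes at the same setting.

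For BM monocytes against cMoP, 4 members were reported higher and 54 lower, with a median of -0.83. The higher count was 0 with a pseudocount of 10 (0%, 3.001%), 15 by the ratio of group means (12.1%, 15.2%), 0 with detection in 50% of cells (0%, 7.19%), 1 with 10 TPM in 25% of cells (1.49%, 7.21%), 0 past 2 on the log2 scale (0%, 2.06%), 2 without high mitochondrial libraries (1.61%, 5.28%) and 14 in the restricted subset (11.3%, 15.1%). The lower count was 17 with a pseudocount of 10 (13.7%, 16.7%) and 18 past 2 on the log2 scale (14.5%, 17.2%). The median was -1.51 with a pseudocount of 0.1, -0.31 with 10, -0.31 by the ratio of means, -0.0067 with no filter, -1.58 with 50% of cells (all genes -1.14) and -1.62 with 10 TPM (all genes -1.22).

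For blood against BM monocytes, 2 were reported higher and 11 lower. The higher count was 7 with a pseudocount of 0.1 (5.65%, 5.87%), 1 with a pseudocount of 10 (0.806%, 0.974%), 29 by the ratio of group means (23.4%, 15.4%), 4 with median-ratio scaling (3.23%, 4.65%), 0 past 2 on the log2 scale (0%, 0.447%) and 11 in the restricted subset (8.87%, 8.05%). The lower count was 19 with a pseudocount of 0.1 (15.3%, 24.2%), 1 with a pseudocount of 10 (0.806%, 4.06%), 35 by the ratio of group means (28.2%, 24.6%), 7 with detection in 50% of cells (11.7%, 19.7%), 0 past 2 on the log2 scale (0%, 2.04%) and 18 in the restricted subset (14.5%, 18.3%).

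For blood monocytes against cMoP, 2 were reported higher and 65 lower, with a median of -1.05. The higher count was 1 with a pseudocount of 10 (0.806%, 3.44%), 17 by the ratio of group means (13.7%, 20.1%), 1 with detection in 50% of cells (1.67%, 7.37%), 1 with 10 TPM in 25% of cells (1.49%, 7.67%), 5 with median-ratio scaling (4.03%, 8.51%), 1 past 2 on the log2 scale (0.806%, 2.47%) and 16 in the restricted subset (12.9%, 16.7%). The lower count was 24 with a pseudocount of 10 (19.4%, 23.9%), 40 with detection in 50% of cells (66.7%, 63.7%), 42 with median-ratio scaling (33.9%, 39.8%) and 24 past 2 on the log2 scale (19.4%, 25.5%). The median was -1.76 with a pseudocount of 0.1, -0.38 with 10, -0.30 by the ratio of means, -0.0067 with no filter, -1.78 with 50% of cells and -1.78 with 10 TPM.

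Signs turned by the ratio of group means for BM monocytes against cMoP at Slc38a2 (0.16) and Slc35b1 (0.29), and for blood monocytes against cMoP at Slc38a2 (0.13), Slc50a1 (0.57), Slc35b1 (0.20), Slc20a1 (0.20), Slc44a2 (0.49) and Slc31a2 (0.21). In the restricted subset they turned for BM monocytes against cMoP at Slc38a2 (0.97), Slc20a1 (0.43) and Slc30a5 (0.014), and for blood monocytes against cMoP at Slc20a1 (1.599), Slc12a8 (0.88) and Slc31a2 (0.074). Leaving out the 3 blood libraries low in Ly6c2 was an alternative chosen after seeing the data. Against BM monocytes it gave 2 members higher (1.61%, 3.03%) and 12 lower (9.68%, 13.4%).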
